A study of Mus musculus with 4 samples.

Results

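Trpm6 and 8 related genes of magnesium handling or of the TRPM channel family were examined in the transcriptome of newborn mouse brain endothelial cells, in controls with a floxed Pd1 gene and in mice that delete it through Tie2-Cre. The 9 genes are 5 TRPM channels (Trpm6, Trpm7, Trpm2, Trpm3 and Trpm4), Magt1, and the transporters Cnnm2, Cnnm3 and Cnnm4. They were found by gene symbol among the 21578 genes of the deposited tables, and all 9 passed edgeR's filter on low counts, as did 15909 genes in all. The set was chosen by what the same libraries had shown. Trpm6 was selected on its difference between the genotypes, as 1 of the genes the study took to RT-qPCR for their large changes, and the other 8 were added as its relatives. Differences of the 9 genes between the genotypes are therefore given as a description, with no test.

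The cells came from C57BL/6 mice at postnatal day 0. Control mice (the controls) were Pd1fl/fl, with both alleles of Pd1 (Pdcd1, the gene of the immune checkpoint receptor PD-1) flanked by loxP sites. Pd1cKO-Tie2 mice carried the same floxed alleles and in addition Tie2-Cre, which recombines in endothelial cells and, as the study notes, also in blood-forming cells and part of the myeloid lineage. Per the methods, cortical cells were labelled for CD31 and CD45 and sorted. The sources do not say whether the sequenced RNA came from freshly sorted cells or from sorted cells kept in culture. There were 2 libraries per genotype. The labels do not say whether a library held 1 animal or several, so the spread between libraries, and any p-value resting on it, may be technical. In the tables, 1 Pd1cKO-Tie2 column bears a number found in no label, so this library (replicate 2) has a genotype but no label of its own.

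Depth and purity set the frame for the 9 genes. Total counts lay between 13714374 and 24146115 reads, and the deepest library was Pd1cKO-Tie2 replicate 1. Levels are given as CPM (reads on a gene relative to all counted reads of the library, scaled by edgeR's TMM method). For counting error only, a count of 0 allows up to 3 counts, or 0.1242 to 0.2187 CPM before that scaling in these libraries. The deleted gene Pdcd1 was counted 32 times in Pd1fl/fl replicate 1 and never elsewhere. A control library thus held 0 counts as well, so Pdcd1 did not check the labels of the libraries with 0 counts. The 10 endothelial markers were abundant in each library, with a summed level between 9260.8 and 12913.7 CPM.

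TRPM6 and TRPM7 are ion channels that carry magnesium and calcium into the cell and end in a protein kinase of their own. TRPM7 is made in nearly every cell, whereas TRPM6 is best known from the kidney tubule and the gut, where it takes up magnesium and where its loss causes low blood magnesium. The CNNM proteins move magnesium across the membrane, CNNM4 mostly outwards, and MAGT1 is both a proposed magnesium transporter and a subunit of the complex that attaches sugars to proteins.

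Trpm6 (ENSMUSG00000024727) lies on the plus strand of chromosome 19 of GRCm38, from 18749983 to 18892510. In GENCODE M21 it has 4 transcripts, 39 exons in the longest of them and 7719 bases of exon in all. None of its exons overlapped an exon of another gene, and 0% of its 50-base stretches occurred, matched exactly, in an annotated transcript of another gene. Introns and the sequence between genes were not searched. The primers with which the study measured Trpm6 are shown because they mark the stretch of the transcript on which its RT-qPCR rests, and all their bases are in lower case.
Trpm6 forward: tctgccacaatttagtcaggtg
Trpm6 reverse: tggtgccgaaggtatctgtag

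Matched to the M21 transcripts, the forward primer spans the junction of exon 3 (18776713 to 18776731) and exon 4 (18778520 to 18778522) of ENSMUST00000040489.8. The reverse primer lies within exon 4, from 18778639 to 18778659. Both are in coding sequence, match 3 of the 4 Trpm6 transcripts and no transcript of another gene, and enclose a product of 159 bases.

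The promoters of Trpm6 and its closest relative Trpm7 are shown because the levels of both genes separated the genotypes, in opposite directions. They are RefSeq windows of GRCm38.p6, from 250 bases before to 50 bases after the annotated start, at chr19:18749480-18749779 on the plus strand and chr2:126876212-126876511 on the minus strand. Capitals mark CG dinucleotides, the site of most DNA methylation, which reads the same on both strands.
Trpm6: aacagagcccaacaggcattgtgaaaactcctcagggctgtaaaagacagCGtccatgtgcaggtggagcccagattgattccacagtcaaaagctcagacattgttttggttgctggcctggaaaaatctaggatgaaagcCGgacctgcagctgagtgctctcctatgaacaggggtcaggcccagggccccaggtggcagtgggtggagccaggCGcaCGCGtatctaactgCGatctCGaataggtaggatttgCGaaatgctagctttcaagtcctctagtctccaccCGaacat
Trpm7: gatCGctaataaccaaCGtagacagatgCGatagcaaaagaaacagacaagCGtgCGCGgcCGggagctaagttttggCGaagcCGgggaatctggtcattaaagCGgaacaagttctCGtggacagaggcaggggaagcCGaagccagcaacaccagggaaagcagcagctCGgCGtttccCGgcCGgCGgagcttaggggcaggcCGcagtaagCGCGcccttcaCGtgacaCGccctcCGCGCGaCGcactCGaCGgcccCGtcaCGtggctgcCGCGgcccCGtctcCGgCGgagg

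The Trpm6 window held 9 CG dinucleotides at a GC content of 53%, and 45.8% of all 32851 RefSeq promoter windows held at least as many. The Trpm7 window held 35 at a GC content of 63.7%, a number reached by 6.95% of windows, and the median window held 7. Of the 9 genes, 8 had a window; Trpm4 had none. Cnnm4 held 42 CG dinucleotides, Cnnm3 32, Magt1 26, Cnnm2 21, Trpm2 15, and Trpm3, with 2 windows, 21 and 10. Trpm6 thus had the fewest among the genes with a window. The RefSeq start of Trpm6 lies before the first base of the gene in the deposited tables, and no M21 transcript starts in the last 50 bases of the window.

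The level of Trpm6 was 3.46 CPM (50 counts) in Pd1fl/fl replicate 1 and 5.412 CPM (77 counts) in Pd1fl/fl replicate 2. With Pd1 deleted it was 31.96 CPM (765 counts) in replicate 1 and 41.9 CPM (573 counts) in replicate 2. Both Pd1cKO-Tie2 libraries were thus far above both Pd1fl/fl libraries, and the libraries of a genotype lay close together. The means were 4.436 ± 1.381 CPM without Cre and 36.93 ± 7.034 CPM with it (SD, n = 2), an 8.31-fold difference, which is 3.05 on the log2 scale (standard error 0.42). With each library left out in turn the log2 fold change ran from 2.77 to 3.41. These are the values that chose the gene. Within genotypes the larger Trpm6 level was 1.56 times the smaller in Pd1fl/fl and 1.31 times in Pd1cKO-Tie2, beside medians over all genes with a count in both libraries of 1.35 and 1.34.

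In these bulk samples, fewer cells that make a transcript cannot be told apart from less of it per cell.

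**Figure D1:**
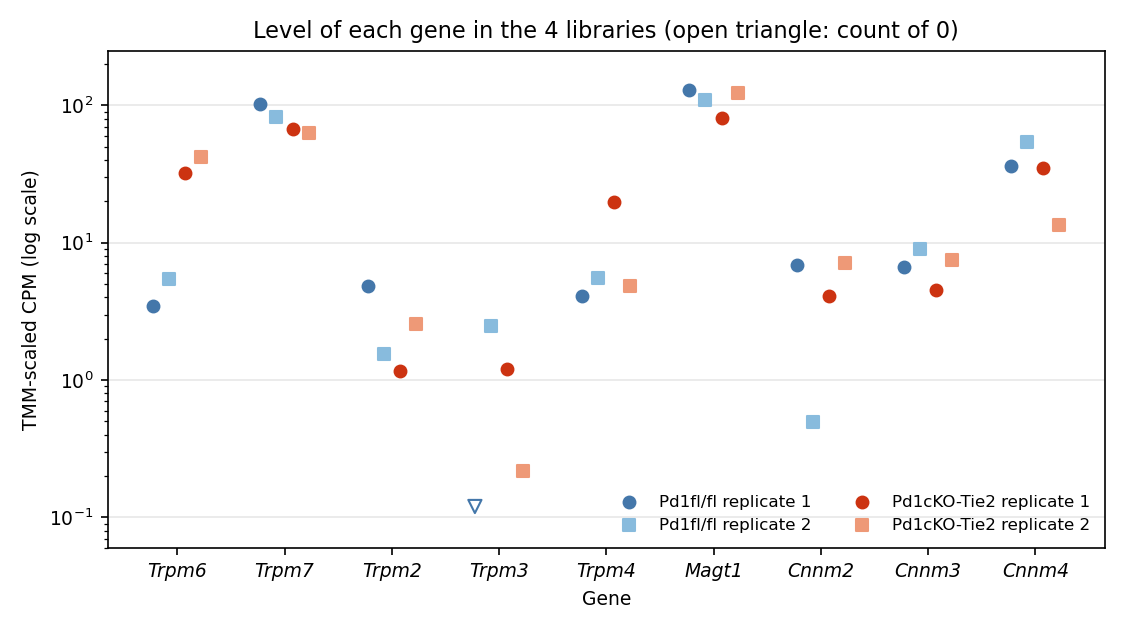
TMM-scaled CPM, on a log axis, of each of the 9 genes in the 4 libraries, with circles and squares for replicates 1 and 2, blue for Pd1fl/fl and red for Pd1cKO-Tie2; the open triangle stands for a count of 0. Trpm6 is at 3.46 and 5.412 CPM without Cre and at 31.96 and 41.9 CPM with it, while 6 of the other 8 genes overlap between the genotypes.

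Trpm7 (ENSMUSG00000027365, chromosome 2, 126791565 to 126876230, minus strand), the ubiquitous relative with which TRPM6 can form joint channels, was the most abundant TRPM channel in every library. Its level was 103.2 and 83.01 CPM in the Pd1fl/fl libraries and 67.63 and 62.97 CPM in the Pd1cKO-Tie2 libraries. Both Pd1cKO-Tie2 libraries were lower than both Pd1fl/fl libraries. The means were 93.12 ± 14.3 and 65.3 ± 3.299 CPM (SD, n = 2), 1.43-fold lower in Pd1cKO-Tie2, with a log2 fold change of -0.51 (standard error 0.22). Leaving out 1 library gave -0.66 to -0.34, so the direction rested on no single library.

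Levels of the 2 channels can be compared with each other only per length of exon. Trpm6 was at 0.448 and 0.701 CPM per kilobase of exon in the Pd1fl/fl libraries, against 9.12 and 7.34 for Trpm7. In the Pd1cKO-Tie2 libraries Trpm6 was at 4.14 and 5.43 CPM per kilobase, against 5.98 and 5.56 for Trpm7. By merged exon length, Trpm6 transcripts thus went from 4.91% and 9.56% of those of Trpm7 to 69.3% and 97.6%. The merged exons hold 7719 bases for Trpm6 and 11315 for Trpm7, against 6509 and 7107 in the longest transcript. By the longest transcript the Trpm6 percentages would be lower, and neither they nor the sums below were computed that way. The sum of both was 9.57 and 8.04 CPM per kilobase in the controls, and 10.1 and 11 with Pd1 deleted. As means this was 8.8 ± 1.09 against 10.6 ± 0.62 (SD, n = 2), a far smaller step than that in the makeup of the pair. Among all 5 TRPM channels of the set, Trpm6 made up 4.34% and 7.99% per length in the controls, and 34.2% and 46.6% with Pd1 deleted.

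**Figure D2:**
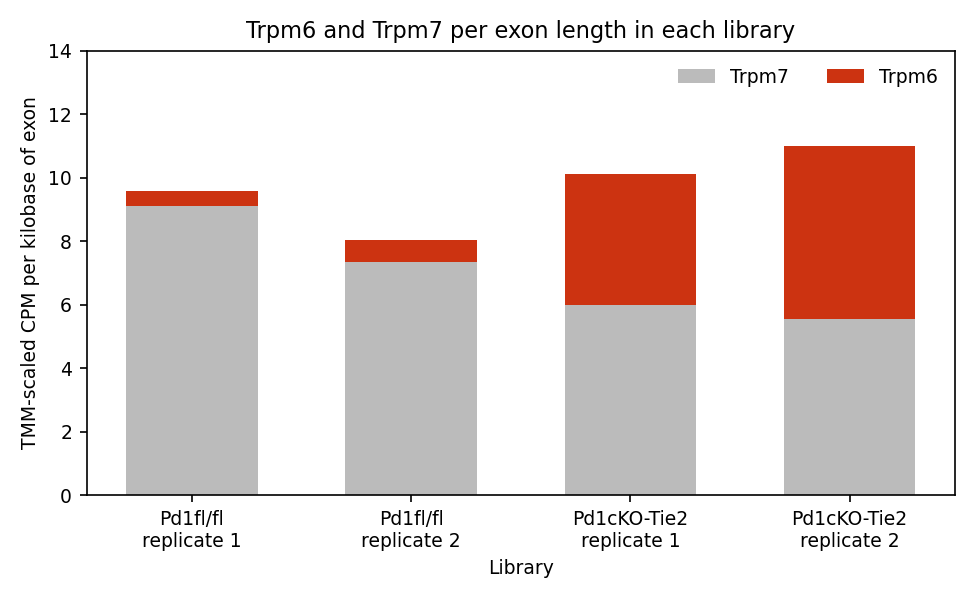
Stacked bars of the level of Trpm7 (grey) and Trpm6 (red) in each library, in TMM-scaled CPM per kilobase of merged exon. The whole bars run from 8.04 to 11, whereas the Trpm6 share of the bar is 4.68% and 8.72% without Cre and 40.9% and 49.4% with it.

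Trpm4, a channel opened by calcium inside the cell that lets sodium through and is known from injured endothelium, stood high in 1 library. Its level was 4.082 and 5.552 CPM in the controls, and with Pd1 deleted 19.84 CPM in replicate 1 but 4.827 CPM in replicate 2. The last value lay between those of the Pd1fl/fl libraries, so the genotypes overlapped. The log2 fold change of 1.36 (standard error 0.80) became 0.01 without Pd1cKO-Tie2 replicate 1. The Pd1cKO-Tie2 libraries differed 4.11-fold, a ratio that 7.1% of genes reached.

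Trpm2, a calcium channel opened by ADP-ribose and oxidative stress that is well known in neutrophils and microglia, was scarce. Its counts were 70 and 22 in the controls and 28 and 35 in the Pd1cKO-Tie2 libraries, or 4.843, 1.546, 1.17 and 2.56 CPM. The groups overlapped, and the log2 fold change of -0.78 (standard error 1.18) turned to 0.27 without Pd1fl/fl replicate 1. That library also had the highest summed level of 8 neutrophil markers, 911.3 CPM against 1.316 to 55.39 CPM in the others. The part of these cells in the Trpm2 level was not tested.

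Trpm3, a heat- and steroid-gated channel known from sensory neurons and the choroid plexus, was close to its limit of detection. Its counts were 0 and 35 in the Pd1fl/fl libraries and 29 and 3 in the Pd1cKO-Tie2 libraries. The libraries of each genotype differed more from each other than the genotypes did. Its log2 fold change of -0.76 had a standard error of 2.28 and became 6.66 without Pd1fl/fl replicate 2. Of the choroid plexus markers, Kl, Folr1 and Kcnj13 had no count in any library, and Ttr had 15, 0, 99 and 0 counts.

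Magt1 (ENSMUSG00000031232, chromosome X, 105968084 to 106011906, minus strand) had the highest level per length of the 9 genes in each library. The controls held 129.6 and 110.3 CPM, the Pd1cKO-Tie2 libraries 81.38 and 123.3 CPM. The groups overlapped, with means of 120 ± 13.61 and 102.3 ± 29.65 CPM (SD, n = 2). On the log2 scale the difference was -0.23 (standard error 0.26). It lay between -0.56 and 0.05 when a library was left out.

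Cnnm4 (ENSMUSG00000037408, chromosome 1, 36471620 to 36508764, plus strand), which exports magnesium from the gut epithelium in exchange for sodium, was the most abundant of the 3 CNNM genes. The controls held 36.46 and 54.4 CPM, the Pd1cKO-Tie2 libraries 34.97 and 13.46 CPM. Both Pd1cKO-Tie2 libraries were below both Pd1fl/fl libraries, although 34.97 and 36.46 CPM lie side by side. Cnnm4 was 1.87-fold lower in Pd1cKO-Tie2, or -0.90 on the log2 scale (standard error 0.51). Its size hung on Pd1cKO-Tie2 replicate 2: it was -0.37 without that library and -1.75 without Pd1cKO-Tie2 replicate 1. The neighbouring Cnnm3, which binds phosphatases of the PRL family, was at 6.711, 8.996, 4.553 and 7.459 CPM in the same order of libraries. Its groups overlapped, and the log2 fold change was -0.39 (standard error 0.63). Cnnm3 and Cnnm4 share 3.01% and 2.2% of their 50-base stretches with other genes, and exons of each overlap a predicted gene, by 269 bases for Cnnm3 on the other strand and 141 bases for Cnnm4 on the same strand.

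Cnnm2, whose loss in people lowers blood magnesium and affects the brain, was at 6.85 and 0.492 CPM in the controls, and 4.094 and 7.094 CPM with Pd1 deleted. The low value of Pd1fl/fl replicate 2 rested on 7 counts, against 97 to 99 in the other libraries. This 13.9-fold ratio within Pd1fl/fl was reached by 1.93% of genes. With all libraries the difference was 0.60 on the log2 scale (standard error 1.26), and 3.49 without Pd1fl/fl replicate 1.

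**Figure D3:**
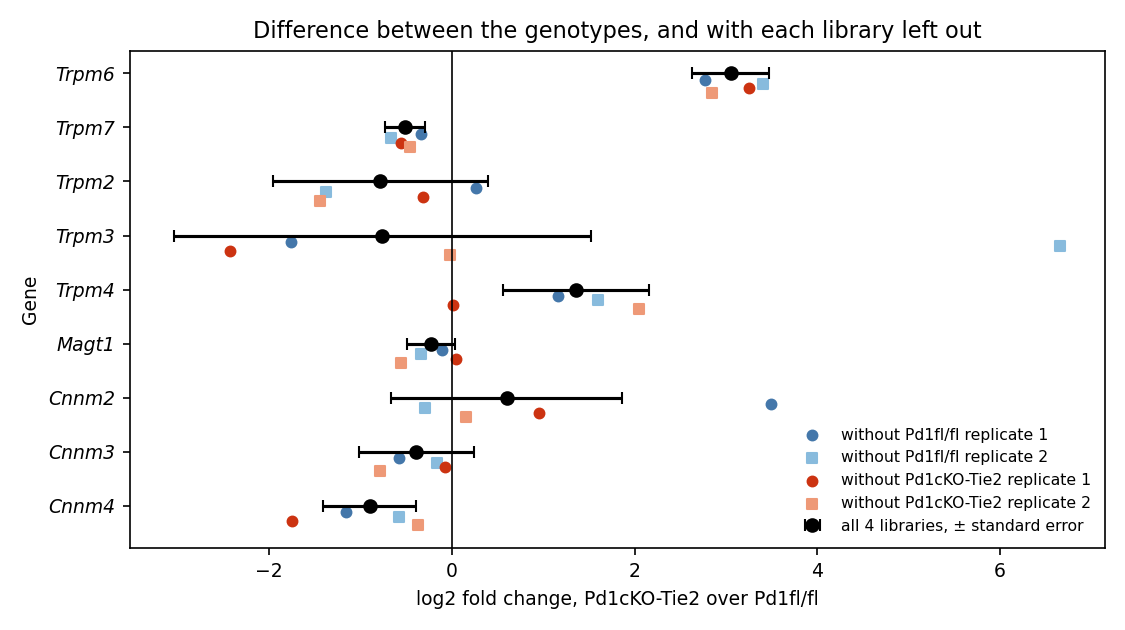
The log2 fold change of each of the 9 genes, Pd1cKO-Tie2 over Pd1fl/fl, with its standard error (black) and with each library left out in turn (colours). Trpm6 stays between 2.77 and 3.41, Trpm7 between -0.66 and -0.34, while Trpm3 and Cnnm2 reach 6.66 and 3.49 when 1 Pd1fl/fl library is left out.

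Across the set, only Trpm6 met the study's criterion of 2-fold or more at p of at most 0.05, and 0 of the 9 met it downwards. Trpm6 was chosen on this difference in these libraries, so its passing is no test. Of all tested genes, 1.41% met it as higher and 2.61% as lower in Pd1cKO-Tie2. Without overlap, the Pd1cKO-Tie2 libraries were the higher ones for Trpm6 alone, as they were for 17.8% of all tested genes, and the lower ones for Trpm7 and Cnnm4, as for 18.1% of all. The other 6 genes overlapped. The median log2 fold change of the 9 genes was -0.39, beside -0.00 over all tested genes. With edgeR, 0 genes of the whole table had an adjusted p under 0.05, while 1016 had an unadjusted p under 0.05. On the same genes limma-voom gave 0 with an adjusted p under 0.05. DESeq2, run without the filter on all 21578 genes, gave 114, where edgeR without the filter on these genes gave 0.

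The order of the levels per kilobase of exon in Pd1fl/fl was Magt1, Cnnm4, Trpm7, Cnnm3, Cnnm2, Trpm6, Trpm4, Trpm2 and Trpm3, from 25.7 CPM per kilobase for Magt1 to 0.0503 for Trpm3. Of these neighbours, only Magt1 and Cnnm4, Trpm7 and Cnnm3, and Trpm2 and Trpm3 did not overlap between libraries. Cnnm4 and Trpm7, and neighbours in the run from Cnnm3 to Trpm2, did not differ beyond their spread. In Pd1cKO-Tie2 the order was Magt1, Trpm7, Cnnm4, Trpm6, Trpm4, Cnnm2, Cnnm3, Trpm2 and Trpm3. There Trpm7, Cnnm4 and Trpm6, at 5.77 ± 0.292, 5.01 ± 3.15 and 4.78 ± 0.911 CPM per kilobase (SD, n = 2), overlapped from neighbour to neighbour, and Trpm6 was set off from Trpm4 at 1.14 ± 0.981. By merged exon length Trpm6 thus moved from rank 6 to rank 4, where it overlapped Cnnm4. Trpm6 stayed below Trpm7 without overlap, at 4.14 and 5.43 against 5.98 and 5.56 CPM per kilobase in the Pd1cKO-Tie2 libraries. With the longest transcript as length, 28 of the 36 ranks over the 4 libraries were kept.

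The other genes of the pathway were taken from lists by function. Of 78 genes, 65 had a count and 57 were tested. As higher in Pd1cKO-Tie2, 0 met the criterion, beside 1.41% of all tested genes, and as lower 1, beside 2.61%. Counts this small cannot be set against those shares. The Pd1cKO-Tie2 libraries were higher without overlap for 12 of the 57 genes, beside 17.8% of all tested genes, and lower for 6, beside 18.1% of all. The median log2 fold change of the 57 genes was 0.08.

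Slc41a3, which moves magnesium across the inner mitochondrial membrane, was the gene that fell. Its level was 26.85 and 18.84 CPM in the controls, and 12.07 and 8.264 CPM with Pd1 deleted, so the libraries did not overlap. It met the criterion at a log2 fold change of -1.17 (standard error 0.42), with an adjusted p of 0.753 (edgeR quasi-likelihood test). The criterion was missed without Pd1cKO-Tie2 replicate 2 (-0.92) or without Pd1fl/fl replicate 1 (-0.88).

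The remaining magnesium transporters did not meet the criterion. Slc41a1, a sodium-magnesium exchanger of the cell membrane, was at 74.66 and 50.6 CPM in the controls, against 33.92 and 48.19 CPM with Pd1 deleted (log2 fold change -0.61, standard error 0.32). Its libraries did not overlap. Mrs2, the magnesium channel of mitochondria, went the other way without overlap, at 12.32 and 8.294 against 19.88 and 13.68 CPM (0.70, standard error 0.46). Tusc3, the paralogue of Magt1 in the same sugar-attaching complex, was at 113.2 and 102.1 against 126.4 and 135.9 CPM (0.28, standard error 0.18). The difference on the log2 scale was -0.54 for Mmgt1, 0.61 for Nipal3 and 0.03 for Nipa2, all with overlapping libraries. Slc41a2 (-0.87), Nipal1 (-2.49) and Nipal2 (1.88) each had at most 1 count in 1 library. Nipa1 and Nipal4 held counts mainly in 1 library (Nipal4 105 counts in Pd1cKO-Tie2 replicate 2) and were not tested, and Cnnm1 had no count.

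Among the other TRPM channels, the melanocyte and retinal channel Trpm1 had 23 counts in Pd1fl/fl replicate 1 and none elsewhere, and the cold sensor Trpm8 had no count. Trpm5, the channel of taste cells, was counted 3 and 15 times in the controls and 27 and 49 times with Pd1 deleted, a log2 fold change of 1.88 (standard error 1.55) without overlap. It did not meet the criterion (adjusted p = 0.991, edgeR quasi-likelihood test). It was the only gene tested on that list.

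None of the tested genes met the criterion in the lists of regulators and partners (12 genes), TRPM7 kinase substrates (5), ADP-ribose metabolism and TRPM4 partners (9), oligosaccharyltransferase subunits (10) and TRP channels outside the TRPM family (10). Of all tested genes, 1.41% met the criterion as higher and 2.61% as lower. Lists this short cannot be set against those shares. The median log2 fold changes of these lists, in the same order, were 0.10, -0.03, -0.04, 0.12 and 0.24. The most abundant gene of each list is given as an example, with Pd1fl/fl first. Ptp4a2, a PRL phosphatase that binds CNNM proteins, was at 728 ± 115.9 and 690.7 ± 182.3 CPM, and Myh10, a non-muscle myosin, at 601.1 ± 160.2 and 682.7 ± 72.47 CPM (SD, n = 2). Kcnj8, a potassium channel subunit of pericytes, was at 230.6 ± 85.6 and 221.8 ± 7.001 CPM, and Rpn1, a subunit of the oligosaccharyltransferase, at 385.7 ± 35.02 and 406.7 ± 9.148 CPM. Mcoln1, a cation channel of lysosomes, was at 34.05 ± 3.435 and 40.11 ± 3.66 CPM.

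On chromosome 19, 6 genes within 500 kilobases of Trpm6 were tested. Without overlap, 4 of them were lower and 1 was higher in Pd1cKO-Tie2, beside 18.1% and 17.8% of all tested genes, and 2 met the criterion as lower, beside 2.61% of all. These 6 genes are too few to set against those shares, and the fold changes of Nmrk1 and Gm8250 had wide standard errors. Rorb, a nuclear receptor of retina and cortex whose gene lies 38.09 kilobases after Trpm6, was at 47.46 and 36.13 CPM in the controls, and 24.98 and 14.92 CPM with Pd1 deleted. Rorb met the criterion as lower in Pd1cKO-Tie2 (log2 fold change -1.06, standard error 0.37; adjusted p = 0.743, edgeR quasi-likelihood test). The call was lost without Pd1cKO-Tie2 replicate 2 (-0.74) or Pd1fl/fl replicate 1 (-0.85). D030056L22Rik, 31.55 kilobases before Trpm6, was at 12.32, 5.693, 2.548 and 2.194 CPM and also met the criterion as lower (-1.92, standard error 0.76; adjusted p = 0.761, edgeR quasi-likelihood test). Its call was lost without any of 3 libraries, with limma-voom and without the filter, and its log2 fold change then lay between -2.02 and -1.26. The radial glia and astrocyte markers were lower with Pd1cKO-Tie2 too, at 1058.2 and 1095.8 against 734 and 592.4 CPM, and their part in these genes was not tested.

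Nmrk1, a kinase of NAD synthesis 97.56 kilobases before Trpm6, had a log2 fold change of -1.24 (standard error 0.85), and the pseudogene Gm8250 one of -1.71 (standard error 1.70). Carnmt1, a carnosine methyltransferase 42.78 kilobases before Trpm6, had 1.02 (standard error 1.14) with overlapping libraries. Ostf1, the most abundant of them at 395 ± 40.09 CPM in the controls and 440 ± 1.342 CPM with Pd1 deleted (SD, n = 2), had 0.15 (standard error 0.14). None of these 4 met the criterion.

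**Figure D4:**
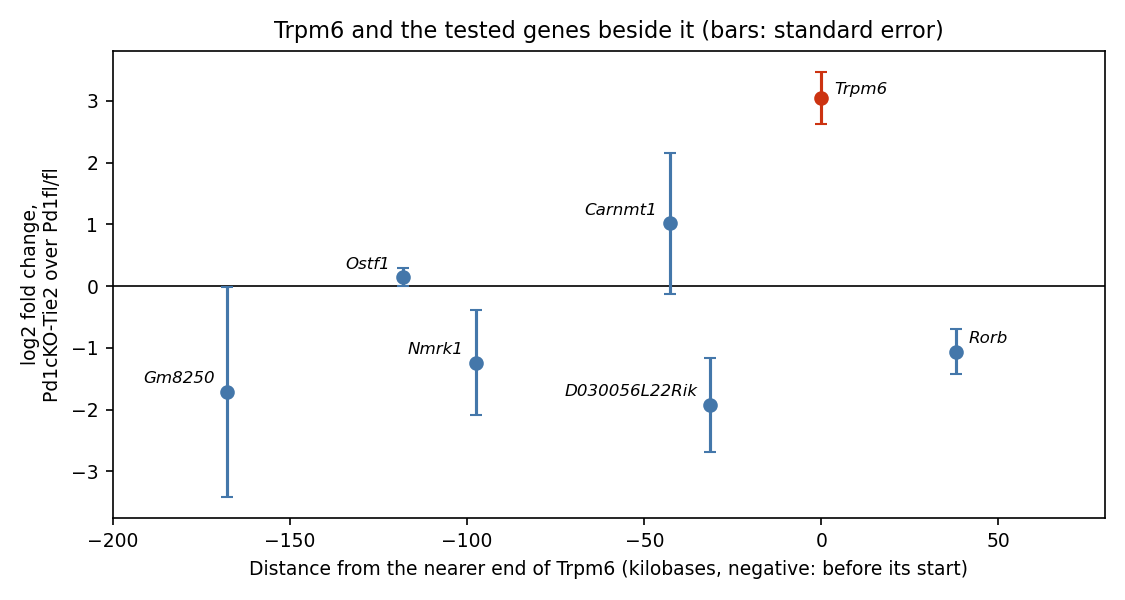
The log2 fold change, Pd1cKO-Tie2 over Pd1fl/fl, of Trpm6 (red) and of the 6 tested genes within 500 kilobases (blue) against their distance from the nearer end of Trpm6 in kilobases; bars are standard errors. Trpm6 stands at 3.05, and D030056L22Rik and Rorb, the tested genes next to it on either side, stand at -1.92 and -1.06.

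The genes whose pattern over the 4 libraries was most like that of Trpm6 were ranked by the Euclidean distance between log2 CPM profiles centred on each gene's mean, over 15908 genes. The nearest were Zfp775, a zinc finger gene, at 0.26 and, in order, Anxa11os, Gm8174, Rpgr and Gm45019 at up to 0.45, where the median distance was 3.21. Zfp775 was counted 16 and 20 times in the controls, and 215 and 183 times with Pd1 deleted. Rpgr, a gene of the photoreceptor cilium, had 19 and 31 against 352 and 181 counts. The other 3 had at most 2 counts in any Pd1fl/fl library and at most 25 in any Pd1cKO-Tie2 library. The names depended on the measure: 2 of the 5 were shared with a prior count of 0.5 in place of 2, and 0 of the 5 with Pearson's correlation.

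Markers of other cell types moved between the libraries as well, and their part in the levels of the 9 genes was not tested. All 10 endothelial markers were higher in both Pd1cKO-Tie2 libraries than in both Pd1fl/fl libraries, with a summed level 1.28 times as high. Beside them, 17.8% of all tested genes were higher and 18.1% lower without overlap. Of 10 microglia and macrophage markers 7 lay lower without overlap, their sum being 2001.6 and 2392.7 CPM in the controls, and 733.1 and 1675.5 CPM with Pd1 deleted. Lyve1, a macrophage marker, had 0 counts in Pd1fl/fl replicate 2. Of 8 radial glia and astrocyte markers 5 lay lower without overlap. Among the tested markers of the other lists, 1 neuron marker lay lower, 1 pericyte marker higher and 1 lower, and 1 choroid plexus marker higher. Erythroid markers had 1 higher and 2 lower, and the remaining lists had none. The sums for neurons (618.9 to 883.3 CPM), the oligodendrocyte lineage (78.3 to 163.5 CPM), fibroblasts and meninges (27.78 to 83.65 CPM) and erythroid cells (546.7 to 1060.9 CPM) overlapped between the genotypes. Pericyte markers summed to 5505.9 CPM in Pd1fl/fl replicate 1 and 3561.0 to 3671.4 CPM in the others. The choroid plexus list summed to 190.6 and 210.9 CPM in the controls and 214.4 and 329.3 CPM with Pd1 deleted, nearly all of it Enpp2, a gene that other brain cells also make. Over all lists, ratios of Pd1cKO-Tie2 over Pd1fl/fl means ran from 0.0606 for neutrophils to 1.37 for erythroid cells. The neutrophil ratio rested on Pd1fl/fl replicate 1. The neutrophil sums were 911.3 and 24.53 CPM in the controls and 55.39 and 1.316 CPM with Pd1 deleted, so the genotypes overlapped.

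**Figure D5:**
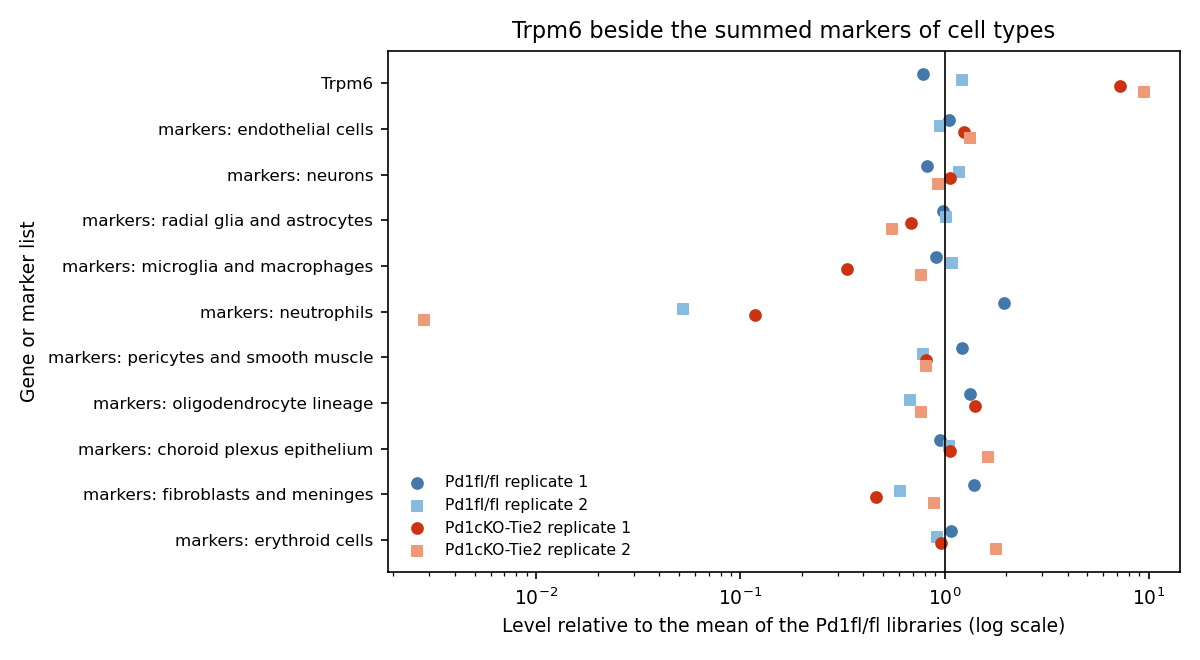
Trpm6 and the summed CPM of the markers of 10 cell types in each library, relative to the mean of the Pd1fl/fl libraries, on a log axis. Trpm6 lies far to the right in both Pd1cKO-Tie2 libraries, while the endothelial sum is 1.28 times as high and the radial glia, microglia and neutrophil sums have ratios of 0.616, 0.548 and 0.0606. The neutrophil sums overlap between the genotypes.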

How the data were processed

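Brain endothelial cells purified by sorting, fresh or cultured (not stated), gave 2 RNA libraries of each genotype. The authors deposited 4 tables of whole-number read counts per gene, each pairing 1 Pd1cKO-Tie2 with 1 Pd1fl/fl library. The tables also hold CPM, fold changes and p-values of each pair, which were not used. The submitters' processing notes name Bowtie2 2.2.3, TopHat2 2.0.12, HTSeq 0.6.0 and mm9, but the positions given for genes fit GRCm38, with 90% identical to GENCODE M21. Use of strand is not given in the sources used here.

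The tables were joined by gene identifier. A gene was listed when both libraries held a count or one held at least 5. Unlisted genes were taken as 0, though up to 4 counts are possible there. In all, 10 broken lines were skipped and 23 symbols turned into dates were restored. Counts were tested with the quasi-likelihood test of edgeR 4.0.16 (R 4.3.3), with filterByExpr by genotype, TMM scaling and no covariate. The criterion was that of the study's methods, and p-values were adjusted by Benjamini-Hochberg across the whole tested table. The common BCV (coefficient of variation between replicates) was 0.61. Levels are TMM-scaled CPM. Levels per kilobase used the merged exon length of M21, and deposited ends of Trpm6, Trpm3 and Cnnm2 differ from M21. Scripts were tested on simulated data.

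The genes and lists were chosen with earlier results of these data known. Named were the 9 genes, all other TRPM channels and magnesium transporters, genes of the other lists past the criterion or most abundant in their list, tested genes within 500 kilobases of Trpm6, the 5 genes most like it, and the deleted gene. Alternatives were DESeq2 1.42.0, limma-voom (limma 3.58.1), other filters and scalings, and leaving out each library in turn. For the order per length, the longest transcript was also used as length.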

Additional observations from a re-analysis of the deposited data

How the results depend on the processing

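The number of genes past the criterion was 640 (224 higher, 416 lower). It lay between 480 (at least 10 counts in every library) and 936 (DESeq2 on all genes with a count) under other tests, filters and scalings, and between 689 and 877 with each library left out in turn; without Pd1fl/fl replicate 2, 486 were higher and 391 lower. The number of list genes past the criterion was 1 with limma-voom, with at least 10 counts in every library and under each other scaling. It was 2 with DESeq2 on all genes with a count and 2 with no filter beyond 1 count, where Nipal4, which the filter had removed, was added. It ran from 1 to 5 with a library left out, with 4 when Pd1cKO-Tie2 replicate 1 and 5 when Pd1fl/fl replicate 2 was left out. Slc41a2 changed direction with limma-voom (0.67), and ran from -3.78 to 8.65 with a library left out (0.05 without Pd1cKO-Tie2 replicate 1). Nipa2, near 0 throughout, did so with library size scaling (-0.03), and ran from -0.09 to 0.17 with a library left out. Of the 9 genes, Trpm3 changed direction with limma-voom (1.26, against -0.76 with edgeR). Trpm2, Trpm3, Magt1 and Cnnm2 changed direction in a fit with a library left out. The causes were not tested. Of 97 values of the 9 genes under an alternative, 90 moved by less than the standard error, and the other 7 were of Trpm3, Trpm4, Magt1, Cnnm2 and Cnnm4 with a library left out. Where a library left out leaves a genotype with 1 sample, that sample is assumed to vary like the other genotype. No paired analysis was possible because the labels of the genotypes share only 1 replicate number. With 2 libraries per genotype and so few counts, the levels of Trpm2, Trpm3 and Cnnm2 cannot show a difference of the size seen between libraries of a genotype.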
